A study of Mus musculus with 2 samples.

Results

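Alternative promoters inside genes were read as DNase I hypersensitive peaks at annotated transcription start sites (TSSs) that lie well downstream of the gene's own 5' end. A peak was a member when its midpoint lay within 500 bp of the TSS of a protein-coding transcript in GENCODE M21. That TSS had to lie at least 5 kb downstream of the 5' end of the same gene and over 1 kb from any TSS of another gene. In replicate 1, 2028 of 93641 peaks (2.17%) were members, and in replicate 2, 1635 of 66196 peaks (2.47%), a mean of 1831.5 ± 277.9 (SD, n = 2). The annotation held 7729 such inner promoters, counting TSSs of a gene within 500 bp of each other as 1, in 4963 genes. Of these genes 3359 had 1 inner promoter and 1604 had 2 or more, up to 12.

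DNase I cuts chromatin where nucleosomes are displaced, so a peak marks a stretch of open chromatin. The tissue was frontal cortex of female mice aged 14 days of the strain B6CASTF1/J, the first-generation cross of the inbred strains C57BL/6J and CAST/EiJ, with no treatment given in the labels. The 2 libraries were labelled as biological replicates, each with a biosample of its own under 1 donor label. How many animals each holds is not stated, so the spread between them may be partly technical. No second group exists, so the libraries give levels and their spread but no test between conditions. Promoter peaks in both libraries were found at 4 of 4 pan-neuronal marker genes, 2 of 4 excitatory, 1 of 4 inhibitory and 2 of 4 astrocyte markers. They were found at 0 of 4 oligodendrocyte, 0 of 4 microglia, 0 of 3 endothelial and 0 of 3 other-tissue markers, although 2 oligodendrocyte markers, 1 microglia marker and 1 other-tissue marker had a promoter peak in replicate 1.

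Many mammalian genes carry several promoters. Transcripts from an inner promoter skip the upstream exons, so they can encode a protein that lacks its N-terminal part or has another one, or can change only the 5' untranslated region. In brain, inner promoters are known for the small dystrophin Dp71, for the kinase-only forms of doublecortin-like kinase and of protein kinase C zeta, and for the many first exons of brain-derived neurotrophic factor. A promoter rich in CpG dinucleotides (a CpG island) is often open in many cell types, whereas CpG-poor promoters tend to be more restricted.

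The first set of sequences shows the contrast that recurred in genes open inside with a closed 5' end. For 4 such genes the 150 bases upstream of the inner TSS and of the gene's 5' end are given 5' to 3' from the reference genome GRCm38 (mm10) of RefSeq, with each CpG in capitals. The inner promoter of Dclk1 follows as an open promoter with few CpGs. The letters are those of the C57BL/6J reference, and the animals carried a CAST/EiJ chromosome set as well.
Hdac4 inner promoter, chr1:92180342-92180491, minus strand: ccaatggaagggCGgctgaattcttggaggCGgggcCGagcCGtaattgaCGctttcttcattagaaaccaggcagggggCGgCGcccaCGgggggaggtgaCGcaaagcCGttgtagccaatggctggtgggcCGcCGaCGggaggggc
Hdac4 5' end, chr1:92195700-92195849, minus strand: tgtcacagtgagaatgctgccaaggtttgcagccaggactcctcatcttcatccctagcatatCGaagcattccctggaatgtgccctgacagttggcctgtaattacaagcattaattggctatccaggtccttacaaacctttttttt
Ndel1 inner promoter, chr11:68853136-68853285, minus strand: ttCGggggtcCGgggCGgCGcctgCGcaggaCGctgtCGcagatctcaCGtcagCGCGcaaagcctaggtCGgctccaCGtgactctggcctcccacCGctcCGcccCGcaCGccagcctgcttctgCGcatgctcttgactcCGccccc
Ndel1 5' end, chr11:68871859-68872008, minus strand: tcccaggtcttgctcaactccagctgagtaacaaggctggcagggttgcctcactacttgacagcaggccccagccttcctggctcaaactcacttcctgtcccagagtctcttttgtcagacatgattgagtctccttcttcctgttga
Gpx4 inner promoter, chr10:80053338-80053487, plus strand: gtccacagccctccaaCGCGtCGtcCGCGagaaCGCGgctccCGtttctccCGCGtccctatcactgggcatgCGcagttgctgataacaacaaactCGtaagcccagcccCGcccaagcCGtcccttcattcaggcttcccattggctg
Gpx4 5' end, chr10:80047016-80047165, plus strand: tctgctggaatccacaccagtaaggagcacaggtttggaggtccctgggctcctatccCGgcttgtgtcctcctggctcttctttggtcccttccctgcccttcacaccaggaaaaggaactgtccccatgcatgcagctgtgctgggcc
Mest inner promoter, chr6:30737900-30738049, plus strand: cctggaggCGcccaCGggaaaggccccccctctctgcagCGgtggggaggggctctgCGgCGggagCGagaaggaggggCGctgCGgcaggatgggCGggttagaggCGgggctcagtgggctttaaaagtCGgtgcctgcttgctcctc
Mest 5' end, chr6:30723397-30723546, plus strand: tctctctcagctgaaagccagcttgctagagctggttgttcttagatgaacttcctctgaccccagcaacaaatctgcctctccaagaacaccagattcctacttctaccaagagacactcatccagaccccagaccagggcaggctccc
Dclk1 inner promoter, chr3:55461578-55461727, plus strand: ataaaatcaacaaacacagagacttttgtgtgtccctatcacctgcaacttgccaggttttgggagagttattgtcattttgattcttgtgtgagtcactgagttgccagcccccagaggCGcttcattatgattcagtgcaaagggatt
The windows held 13 CpGs at the inner promoter of Hdac4 against 1 at its closed 5' end, 18 against 0 in Ndel1, 14 against 1 in Gpx4 and 11 against 0 in Mest. The Dclk1 window held 1 CpG. The Elavl2 gene departed from the contrast, with 8 CpGs upstream of its closed 5' end and 10 upstream of its inner promoter.

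The second set shows what the base-level data add. For 2 neuronal genes the 150 bases upstream of an open inner TSS are printed with the bases in capitals that the authors called as footprints, short stretches protected from cutting, in both libraries.
Elavl2 inner promoter, chr4:91376497-91376646, minus strand: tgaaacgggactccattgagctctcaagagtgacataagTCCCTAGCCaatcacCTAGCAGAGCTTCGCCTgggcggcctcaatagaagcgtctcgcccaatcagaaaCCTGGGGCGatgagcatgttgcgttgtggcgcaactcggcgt
Shank3 inner promoter, chr15:89532740-89532889, plus strand: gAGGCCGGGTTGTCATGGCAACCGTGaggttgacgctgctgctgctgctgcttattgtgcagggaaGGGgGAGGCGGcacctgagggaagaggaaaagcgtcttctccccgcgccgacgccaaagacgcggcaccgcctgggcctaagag
In the Elavl2 window 35 bases were in a footprint in both libraries, and in that of Shank3 likewise 35 bases. A match to CCAAT or its reverse complement (the NF-Y motif) touched a footprint in Elavl2. A match to GTTGCCA or its reverse complement (a core motif of the RFX family) touched one in Shank3. A match is a description of the letters and does not show which factor was bound.

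Inner promoters were open less often than gene 5' ends. A peak lay at 1546 of 7729 inner promoters (20%) in replicate 1 and at 1230 (15.9%) in replicate 2, at 1179 (15.3%) in both and at 1597 (20.7%) in either. The 5' ends of the same 4963 genes had a peak in 64.1% of genes in replicate 1, 59.1% in replicate 2 and 58.3% in both. For all 21951 protein-coding genes the 5' end shares were 57.5%, 52.7% and 52.1%. The open share was therefore lower inside genes than at 5' ends in each library, by far more than the gap between libraries. The units differ, as inner shares count promoters and 5' end shares count genes. Of the 7729 inner promoters, 2834 carried the GENCODE tag that the true start was not found. Among the 4895 others, 29.1% had a peak in replicate 1 and 23.5% in replicate 2.

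Genes fell into 4 classes when a closed end was defined as having no peak midpoint within 500 bp in either library. The inner promoter was open and the 5' end closed in 401 genes (8.08%) in both libraries, against 487 and 494 genes in replicates 1 and 2 taken alone. The reverse, an open 5' end with closed inner promoters, held in 2226 genes (44.9%). Both ends were open in 511 genes (10.3%), neither in 1257 (25.3%), and the libraries put 568 genes (11.4%) in different classes. Among those 568 genes, the most frequent patterns were a 5' end called in replicate 1 alone with nothing inside (178 genes) and an inner promoter called in replicate 1 alone beside a shared 5' end (135 genes). In all, 1002 genes had at least 1 inner promoter open in both libraries, of which 859 had 1, 118 had 2 and the rest 3 to 5.

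**Figure D1:**
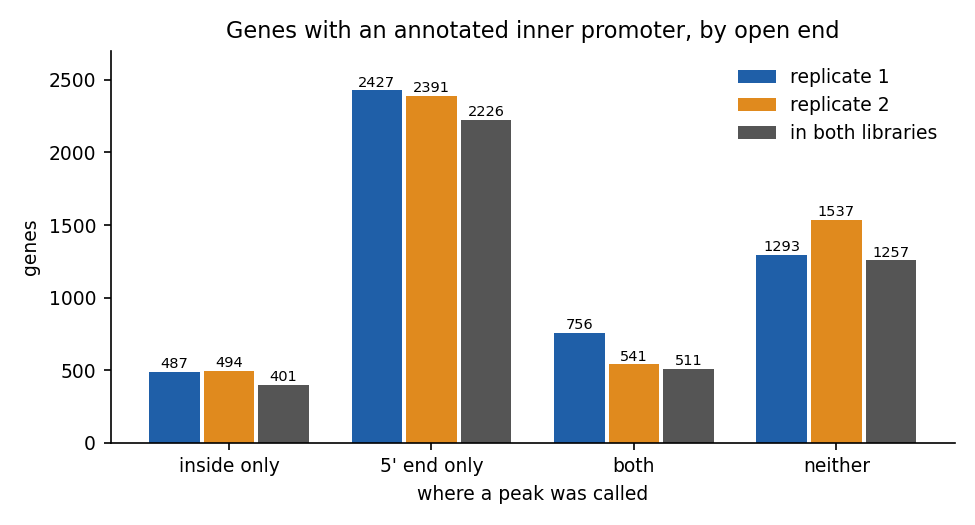
Number of genes (y axis) among the 4963 with an annotated inner promoter, by where a peak was called (x axis), in each library and in both. The class open inside alone held 487 and 494 genes in the single libraries and 401 in both, and the class open at the 5' end alone held 2226 in both.

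Few of these closed 5' ends had a base-level call. Stretches of bases with a deposited false discovery rate (FDR) below 0.05 lay within 500 bp of the 5' end in 4.24% of the 401 genes in replicate 1 and in 3.49% in replicate 2. In 381 of the 401 genes no such stretch lay there in either library, and in 11 one lay there in both. A peak of either library overlapped the 5' window without its midpoint in it in 10 genes. Another annotated TSS within the first 5 kb of the gene had a peak in 36 of the 401 genes (8.98%), and 365 had none. The closed 5' ends of the 1257 genes open at neither place were similar. They had an FDR stretch in 5.09% in replicate 1 and 3.26% in replicate 2, and another TSS with a peak in 10.4%.

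The 12 genes open inside alone with the strongest inner peaks included chromatin regulators, metabolic enzymes and cytoplasmic adaptors. Strength is the deposited peak signal, normalized for read depth by the authors on an unstated scale, and it is compared only within a library. Replicate 1 had the higher value at 1044 of the 1179 inner promoters open in both libraries, and at 2767 of the 2891 such 5' ends. An SD of strength over the libraries includes this offset and is not a spread of the gene alone. For a gene with several inner promoters the strongest in each library is given, which need not be the same promoter in both. For scale, the median over all inner promoter peaks was 0.938 in replicate 1 and 0.866 in replicate 2. Hdac4, a class IIa histone deacetylase, had inner peaks of 10.9 in replicate 1, the strongest of the class, and 6.78 in replicate 2, equal to that of Aktip (mean 8.83 ± 2.89, n = 2). It lay 15.4 kb inside the gene (chr1:92180301-92180560 in replicate 1), and its sequence is shown above. The gene's 5' end had no peak in either library, and no protein-coding transcript starts within 500 bp of it.

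Besides Hdac4, 4 of the 12 genes act in chromatin or transcription, a grouping made by hand after the values were seen. Kat6b, a histone acetyltransferase, reached 8.10 and 6.73 at an inner promoter in its first intron, 19.4 kb from the gene's 5' end. Stag1, a subunit of the cohesin complex, reached 8.51 and 5.40 at 45.7 kb, and Zmynd8, a reader of chromatin marks, 6.36 and 6.72 at 14.1 kb. Rbpj, the DNA-binding factor of the Notch pathway, reached 7.25 and 3.8 at 124.1 kb. These 4 genes had no 5' end peak in either library, as the class requires. Their inner peaks were several times the median inner peak in each library, which follows from naming the strongest of the class.

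Glo1, which detoxifies methylglyoxal, had inner peaks of 9.86 and 6.13, at a TSS that lies in exon 2 of the transcript from the 5' end. Gpx4, the glutathione peroxidase that reduces lipid hydroperoxides in membranes, had 7.80 and 4.25 at 6.32 kb. Ndel1, a dynein regulator that acts in neuronal migration, had 8.47 and 3.66 at 18.7 kb. These genes likewise had no 5' end peak in either library. At the 5' ends of Gpx4 and of Fam118a, given next, no protein-coding transcript starts within 500 bp. Dcun1d4, a cofactor of cullin neddylation, had 8.64 and 3.67, Fam118a 7.20 and 4.22, and Tnip1, an inhibitor of NF-kappaB signalling, 6.33 and 4.19. Aktip had 8.13 and 6.78, with the peak downstream of the annotated inner TSS.

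**Figure D2:**
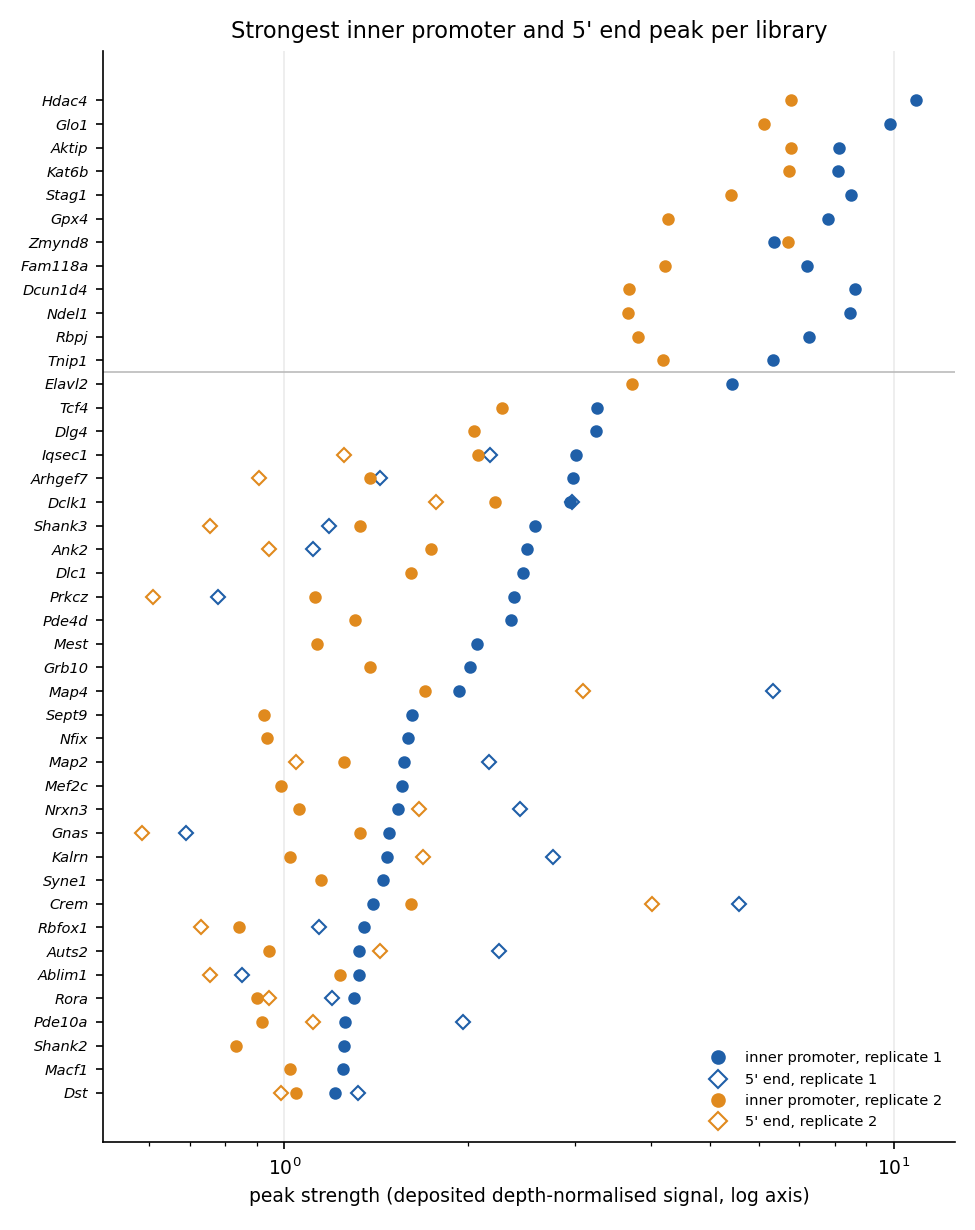
Strength of the strongest inner promoter peak (filled circles) and of the 5' end peak (open diamonds) on a log axis, in replicate 1 (blue) and replicate 2 (orange). The 12 genes above the line are the strongest of the class open inside alone, the 31 below are among the listed neuronal and imprinted genes with an inner peak in both libraries of at least 1.2 in replicate 1. A gene with circles and no diamonds had no 5' end peak.

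In this class the annotated 5' end was often the less supported start. A protein-coding transcript started within 500 bp of it in 312 of the 401 genes (77.8%), against 97.5% of genes open at the 5' end alone. The other 5' ends belong to transcripts of another type. With the 5' end taken from the most upstream coding transcript, 338 genes were open inside alone. The principal isoform of APPRIS, a database that picks the main protein product of a gene, started at an open inner promoter in 292 of the 401 genes (72.8%) and at the 5' end in 120 (29.9%). Of the 323 genes matched to RefSeq, a second gene annotation, 258 (79.9%) had a RefSeq start at an open inner promoter and 123 (38.1%) at the 5' end, and 172 (53.3%) had it inside and not at the 5' end. Among the 2226 genes open at the 5' end alone, the principal isoform started at the 5' end in 90.0%, and a RefSeq start was there in 89.3% of the 1814 matched. Hdac4, Stag1, Ndel1 and Rbpj were of the first kind, with a RefSeq start at the inner promoter and none at the 5' end. For such genes the GENCODE 5' end is a distant upstream transcript, and the inner promoter is the start that RefSeq lists.

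A narrower set keeps genes in which RefSeq lists both starts, so that both promoters are in a second annotation. It held 630 genes and was chosen after the values were seen. Counting RefSeq-listed inner promoters, 86 of these genes (13.7%) were open inside alone in both libraries, 169 (26.8%) at the 5' end alone, 180 (28.6%) at both and 88 (14.0%) at neither, and the libraries differed in 107 (17.0%). The balance was thus nearer even than over all 4963 genes, where 8.08% were open inside alone and 44.9% at the 5' end alone.

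The strongest of the genes open inside alone in that set, after Gpx4 and Dcun1d4, were Tdrd7, a Tudor domain protein of RNA granules, with 6.40 and 3.05, and Iffo2 with 6.03 and 2.70. Dnmt1, the maintenance DNA methyltransferase, had an inner peak of 5.65 in replicate 1 and 2.68 in replicate 2, at 6.91 kb from its closed 5' end. Pdpk1, the kinase that activates AKT, had 5.12 and 2.81, and Pdcd4, an inhibitor of translation initiation, 4.61 and 2.26. Clta, a clathrin light chain, had 4.05 and 2.15, and Csk, the kinase that restrains Src kinases, 3.25 and 1.86. None of these genes had a 5' end peak in either library.

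The reverse pattern with RefSeq starts at both places held in 148 genes in which all inner promoters were closed. Kcnab2, a beta subunit of potassium channels, had a 5' end peak of 9.22 and 5.58 with a closed inner promoter 29.0 kb downstream. Tpst2, a protein-tyrosine sulfotransferase, had 9.26 and 4.98, and Nck1, an SH2 and SH3 adaptor, 8.27 and 5.05. Mark2, a microtubule affinity-regulating kinase, had 8.14 and 4.05, Limk1, a kinase that phosphorylates cofilin, 6.62 and 3.67, and Numb, an inhibitor of Notch signalling, 6.63 and 4.30. Mbd5 had 6.40 and 3.41 with a closed inner promoter 296.5 kb away.

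The 12 strongest 5' ends of the whole class included genes of metabolism, RNA processing and nuclear transport. Hjurp, the chaperone of centromeric histone CENP-A, led with 21.8 and 11.7, a peak it shares with the 5' end of Trpm8. Gys1, muscle glycogen synthase, had 11.6 and 9.57, Ip6k1, an inositol hexakisphosphate kinase, 11.4 and 8.41, and Ankhd1 11.7 and 8.31. Among genes of RNA processing and nuclear transport, Snrnp70 of the U1 snRNP had a mean of 9.47 ± 3.60, while Hnrnpc had 10.6 and 8.11 and the nuclear pore gene Nup153 12.3 and 6.85. Rab11b, a GTPase of recycling endosomes, had 9.94 and 10.1, Myl4, a myosin light chain, 10.3 and 10.1, Polg, the mitochondrial DNA polymerase, 10.4 and 7.18, and Kdm6a, an X-linked histone demethylase, 11.9 and 6.14.

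Many of the closed inner starts in this class are incomplete transcript models. In 1147 of the 2226 genes (51.5%) every inner promoter carried the GENCODE tag that the true start of the transcript was not found, and 20 of the 25 inner promoters of these 12 strongest genes carried it. With such models left out, 1092 genes were open at the 5' end alone. A TSS of another gene lay within 1 kb of the 5' end in 704 of the 2226 genes (31.6%), as with Hjurp and Trpm8, so a 5' peak there cannot be assigned to 1 gene.

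In the 511 genes open at both ends, the 5' end peak was usually the stronger. In 176 of them (34.4%) a TSS of another gene lay within 1 kb of the 5' end, so the peak there cannot be assigned to 1 gene. Inner promoters near other genes had been left out by the rule, so the 2 ends were not selected alike. The strongest inner peak relative to the 5' end peak had a median log2 ratio of -0.44 in replicate 1 and -0.29 in replicate 2 (mean -0.36 ± 0.11, n = 2). The 5' end was stronger in both libraries in 285 genes and the inner promoter in 173, and the libraries disagreed on the direction in 53. A difference of over 2-fold in both libraries favoured the 5' end in 140 genes and the inner promoter in 56. The ratios of the 2 libraries followed each other closely across genes (Spearman correlation 0.939, Pearson r 0.943, 511 genes that share 2 libraries and are not replicates), and the SD of their difference was 0.49.

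**Figure D3:**
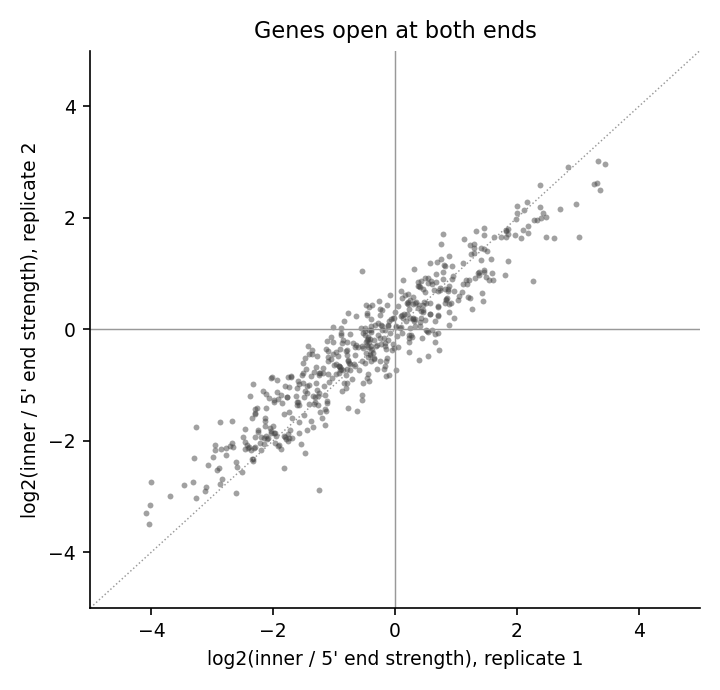
Log2 ratio of the strongest inner promoter peak to the 5' end peak in replicate 1 (x axis) and replicate 2 (y axis), 1 point for each of the 511 genes open at both ends in both libraries. Points lie along the dotted line of equality, with 285 genes below 0 and 173 above 0 in both libraries.

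The inner promoter exceeded the 5' end most in Pnrc1, a nuclear receptor coactivator. Its inner peak was 5.69 and 3.21 and its 5' end peak 0.522 and 0.412, a mean log2 ratio of 3.20 ± 0.34. Bicdl1, a dynein adaptor gene, followed with inner peaks of 10.4 and 5.03 in intron 7 against 1.03 and 0.618 at the 5' end. Next were Atp6v1h, a subunit of the vacuolar proton pump (2.97 ± 0.48), Egf, the epidermal growth factor precursor (2.94 ± 0.46), and Eef1a1, translation elongation factor 1A (2.93 ± 0.60). In these 5 genes the inner peak was well above the library's median inner peak in both libraries. The 5' end peak was below the median for 5' ends. The genes were picked by this ratio, which favours a strong inner peak and a weak 5' end.

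The 5' end exceeded the inner promoter most in B4galt5, a galactosyltransferase, with 5' end peaks of 3.65 and 2.02 against 0.221 and 0.180 inside (mean log2 ratio -3.77 ± 0.39). The inner peak of Trpm8, the cold receptor channel, was 1.28 and 1.19, and its ratio of -3.69 ± 0.56 rests on the 5' end peak shared with Hjurp. Rapgef6 (-3.37 ± 0.89), Slmap (-3.34 ± 0.51) and Ncoa4, the receptor for ferritin turnover (-3.15 ± 0.17), followed. In 4 of the 5 genes RefSeq lists no start at the inner promoter, and Ncoa4 is the exception.

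Genes of 8 lists, mostly neuronal, were looked up whatever their class. RefSeq has a start at only some of the inner promoters named below, and a link to known isoforms was not tested. Of 104 listed genes, 86 had an annotated inner promoter, and 55 of them (64.0%) were open inside in both libraries, against 1002 of all 4963 genes (20.2%). The listed genes are longer (median 333 kb against 49.3 kb) and hold more inner promoters (median 3 against 1), and they were chosen for known promoters. Counted by promoter, 86 of their 315 inner promoters (27.3%) were open in both libraries, against 15.3% of all. By class, 20 were open inside alone, 28 at both, 10 at the 5' end alone and 2 at neither, and in 26 the libraries differed. In 6 of the 20 open inside alone, another start in the first 5 kb had a peak in at least 1 library, and these are named as such.

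Of 13 synaptic adhesion and scaffold genes with an inner promoter, 10 were open inside in both libraries. Nrxn3, a presynaptic adhesion gene, had an inner peak of 1.53 and 1.05, 1090 kb into the gene, beside a 5' end of 2.43 and 1.66. Nrxn2 was called inside in replicate 1 alone, at 1.81, and a peak of replicate 2 abutted or overlapped the same place. Shank3, a postsynaptic scaffold, had an inner peak of 2.58 and 1.33 in intron 16 (chr15:89532701-89532880 in replicate 1), above its 5' end at 1.19 and 0.755 in each library. The transcript from the inner start of Shank3 has 0.0752 of the coding length, and RefSeq lists a start at the 5' end but none inside. Dlg4, which encodes PSD-95, had inner peaks of 3.24 and 2.05 at 12.5 kb and Cask, another scaffold, 0.643 and 0.463. Neither had a peak at the 5' end itself, but in both another start in the first 5 kb had one. Shank2 was open inside alone at 2 promoters, the stronger with 1.25 and 0.832.

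Of 14 cytoskeletal linker and microtubule genes, 11 were open inside in both libraries. Dclk1, a doublecortin-family kinase, had a peak of 2.95 and 2.21 in intron 5, 219 kb into the gene, next to a 5' end of 2.96 and 1.78, so the 2 starts were about equal. The inner transcript has 0.598 of the coding length. Dmd, the dystrophin gene, was open inside alone, in intron 62 at 2100 kb from its closed 5' end (chrX:85048201-85048620 in replicate 1), with 0.710 and 0.480. That inner transcript has 0.168 of the coding length, and its peaks were among the weaker ones shown.

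Ank2, which encodes a brain ankyrin, had 4 of 6 inner promoters open in both libraries, with 2.50 and 1.74 at the strongest. Ank3 had 2 of 12 open in both libraries with a closed 5' end, the strongest with 1.08 and 1.13. Macf1 (1.25 and 1.02) and Sept9 (1.62 and 0.926) were also open inside alone. Syne1, with 1.45 and 1.15 inside, had no peak at the 5' end, but 23 and 12 bases there had an FDR call and another start in the first 5 kb had a peak. The reverse held for Mapt, the tau gene, with 3.13 and 1.87 at the 5' end, and for Ank1, with 0.703 and 0.60. Map4 was open at both, with the 5' end at 6.34 and 3.09 above the inner promoter at 1.94 and 1.70.

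Of 21 transcription factor genes, 13 were open inside in both libraries. Tcf4, a basic helix-loop-helix factor, had inner peaks of 3.25 and 2.27, 250 kb into the gene, and none at the 5' end, although another start in its first 5 kb had a peak. Mef2c (1.56 and 0.986), Nfix (1.59 and 0.935) and Ppargc1a, a coactivator of mitochondrial genes (0.630 and 0.489), were open inside alone with no peak at a start in the first 5 kb. Nr3c1, the glucocorticoid receptor gene, had the most inner promoters open in both libraries, 5 of 5, with the strongest at 3.07 and 4.22. Its 5' end had a peak of 0.395 in replicate 1 and none in replicate 2, so it was in no class. No transcription factor of the list was open at the 5' end alone in both libraries, but in 10 of the 21 the libraries differed. The 5' end was open in both libraries in 12 of the 21. Zbtb20 had 7.59 and 5.58 there and an inner peak of 0.375 in replicate 1 alone. Nfia had 4.09 and 2.55 at the 5' end and 0.516 inside in replicate 1 alone.

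Of 12 neurotrophin, kinase and second messenger genes, 7 were open inside in both libraries. Prkcz, protein kinase C zeta, had inner peaks of 2.38 and 1.12 in intron 4 against 0.777 and 0.609 at the 5' end. The inner transcript has 0.691 of the coding length. Bdnf had 2 open inner promoters of 5, at 0.777 and 0.60 for the stronger, and its 5' end was called in replicate 2 alone at 0.446. Pde4d, a cyclic AMP phosphodiesterase gene of 1504 kb, had 4 of 11 inner promoters open in both libraries, with 2.36 and 1.30 at the strongest. Its 5' end had no peak, but 220 bases there in replicate 1 and 182 in replicate 2 had an FDR call. Camk2d, Gnao1, Pde1a and Camk2a were open at the 5' end alone.

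Of 9 genes for exchange factors and activating proteins of small GTPases, 5 were open inside in both libraries. Iqsec1 had 3.01 and 2.08 inside and 2.18 and 1.25 at the 5' end, and Arhgef7 2.97 and 1.38 inside and 1.43 and 0.909 at the 5' end. Dlc1 had inner peaks of 2.46 and 1.61 and none at its 5' end, with a peak at another start in the first 5 kb and 7 bases with an FDR call at the 5' end in replicate 2. The order of the ends went the other way in Tiam1, with 5.38 and 3.27 at the 5' end and 1.10 and 0.755 inside.

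Of 8 channel and receptor genes, 2 were open inside in both libraries, a share near that of all genes (20.2%). Kcnma1 was closed at both places. Of 5 RNA-binding genes 4 were open inside. Elavl2, a neuronal RNA-binding protein, had the strongest inner peak of the listed genes, 5.43 and 3.71, with no peak at the 5' end 24.3 kb upstream (chr4:91376541-91376660 in replicate 1). Another start in its first 5 kb had a peak, and 14 bases at the 5' end had an FDR call in replicate 1. Of 4 imprinted genes, Mest (2.07 and 1.13) and Grb10 (2.02 and 1.38) were open inside alone. Gnas had 1.49 and 1.33 inside above 0.690 and 0.583 at the 5' end, and Igf2 was closed at both.

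Genes with several open inner promoters were few. Besides Nr3c1, Ank2 and Pde4d, they included Abr, a GTPase activating protein with 4 of 7 open and 3.94 and 2.89 at the strongest, and Gramd1b, a sterol transporter, with 4 of 6 open and 1.55 and 1.38 at the strongest. Both had a weaker 5' end, 0.757 and 0.480 in Abr and 0.563 and 0.506 in Gramd1b.

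Open inner promoters differed from closed ones in annotation and position, which the rule did not use. The 1179 open in both libraries had a transcript of the best GENCODE support level in 68.6%, against 29.3% of the 6132 closed in both. They had a RefSeq start in 67.6% against 20.9%, and the start-not-found tag in 5.85% against 44.1%. Relative to the transcript from the 5' end they lay in an intron in 88.1% against 41.6%, in the first intron in 46.2% against 21.2%, and in an exon in 9.07% against 55.1%. These positions were not split by the start-not-found tag, so the contrast in position cannot be told apart from that in the tag. An FDR stretch lay near 1.92% of the closed ones in replicate 1 and 0.864% in replicate 2.

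Seen the other way, 39.5% ± 4.71 of the 1830 inner promoters with a RefSeq start had a peak (SD, n = 2), against 9.20% ± 2.21 of the 4411 without. The share was 26.3% ± 3.93 for starts that were found and 3.53% ± 1.10 for those tagged as not found. Beyond 100 kb from the 5' end 23.0% ± 3.61 were open, against 15.9% ± 2.47 at 5 to 10 kb, so the ranges of the libraries did not overlap.

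Among RefSeq-listed inner promoters, more were open in genes whose 5' end was open as well, an order that the pooled shares did not show. With a RefSeq start, 47.3% ± 5.74 of inner promoters were open where the 5' end was open in both libraries and 32.6% ± 3.18 where it was closed. Without one, the shares were 7.96% ± 1.96 where the 5' end was open and 11.2% ± 2.54 where it was closed. The order was thus the reverse of that among RefSeq-listed ones in each library. Replicate 1 gave 9.35% beside an open and 13.0% beside a closed 5' end, and replicate 2 gave 6.57% and 9.42%, a gap of similar size to that between the libraries. Pooled, the shares were 15.6% ± 2.64 and 20.7% ± 2.79, again lower in each library where the 5' end was open.

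**Figure D4:**
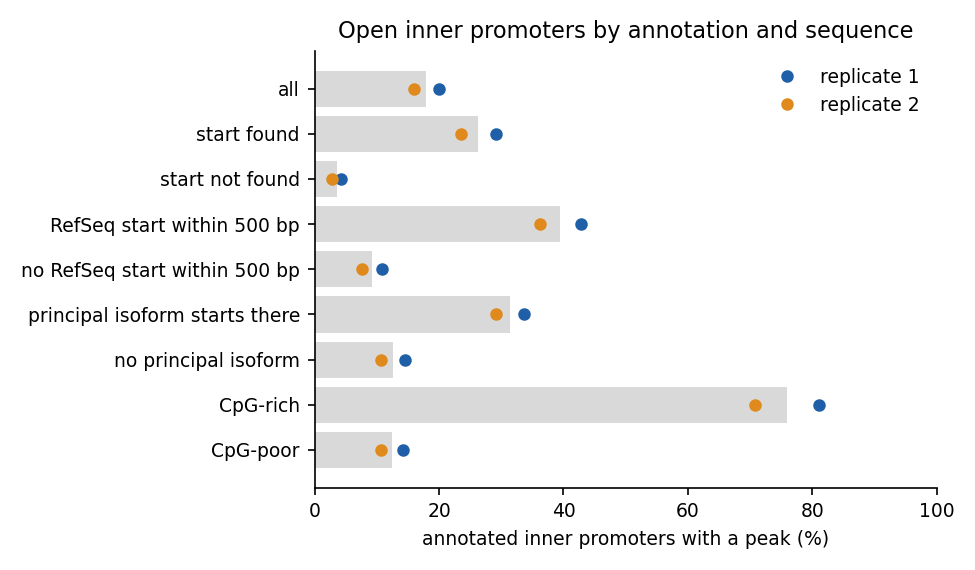
Percent of annotated inner promoters with a peak (x axis) by annotation and sequence class. Bars are the mean of both libraries and points are the libraries, and the CpG-rich class reached 81.1% and 70.8% against 14.2% and 10.7% for the CpG-poor class.

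Where the start codons of both transcripts were annotated, the inner transcript of an open inner promoter used a different start codon in 550 of 935 (58.8%), against 42.5% of closed ones. Its annotated coding length was shorter in 328 of the 550 and longer in 219, and under 0.5 of that from the 5' end in 111 (20.2%). Some models end early, so coding lengths are those annotated. Open inner promoters beside an open 5' end used a different start codon in 67.3% and lay 45.5 kb from it (median), against 47.6% and 19.4 kb beside a closed 5' end.

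CpG content followed openness at both ends. In the 300 bases from 250 before to 50 after the start, open inner promoters had a median GC content of 57% and a ratio of observed to expected CpG of 0.537, against 46.7% and 0.237 for closed ones. The open 5' ends of genes with closed inner promoters had 0.789, and all 54353 protein-coding starts 0.529. Open inner promoters beside a closed 5' end had 0.613, above those beside an open 5' end at 0.476. The closed 5' ends of the 401 genes had 0.229, near the 0.189 of 5' ends in genes closed at both places. Within the 401 genes the ratio was higher at the strongest open inner promoter than at the 5' end in 330.

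**Figure D5:**
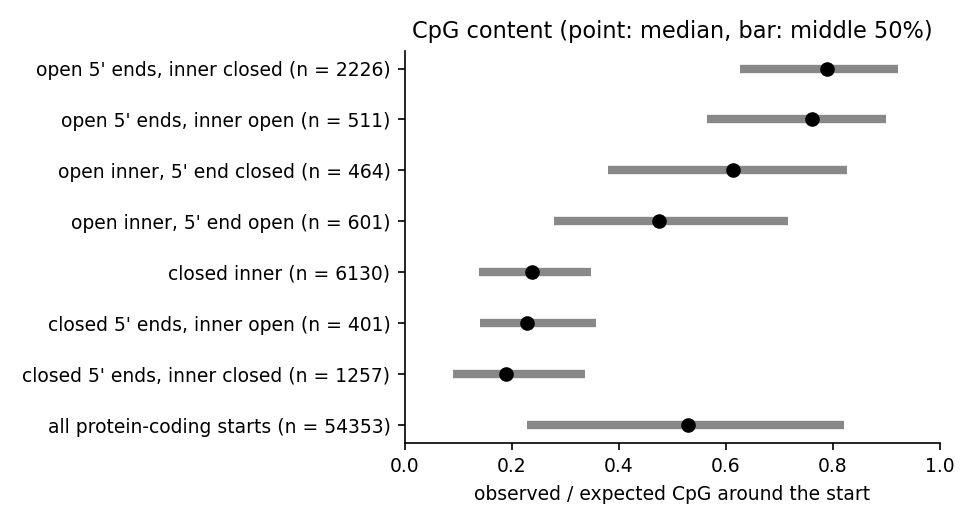
Ratio of observed to expected CpG (x axis) in the 300 bases around the start for 8 groups of starts, with the median as a point and the middle 50% as a bar. Open starts have medians of 0.476 to 0.789 and closed ones 0.189 to 0.237.

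With CpG-rich defined as a ratio of at least 0.6 and a GC content of at least 50%, 672 inner promoters qualified. A peak lay at 76.0% ± 7.26 of them, against 12.4% ± 2.48 of the 7053 others. Among those with a RefSeq start the shares were 87.4% ± 7.22 and 27.3% ± 4.07, so the gap was present within RefSeq-listed starts too. CpG-rich open inner promoters were also stronger, with medians of 2.13 and 1.36 against 1.11 and 0.883. The majority of open inner promoters, 703 of 1177 with a complete window, were CpG-poor, as in Dclk1 above.

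Of 12 short motifs searched on both strands in the same window, GGGCGG (SP and KLF factors) differed most in percentage points, at 46.1% of open and 7.80% of closed inner promoters, against 43.1% of all protein-coding starts. The closed set includes the start-not-found models. Closed inner promoters with a found start had GGGCGG in 9.68%, and those with a RefSeq start in 13.9%. Open inner promoters beside a closed 5' end had it in 53.4% and beside an open one in 39.9%, and the open 5' ends of genes with closed inner promoters in 67.1%. The ETS motif CCGGAAG was in 7.90% of open and 2.04% of closed inner promoters (10.7% of all starts), and the NRF1 motif GCGCATGC in 2.97% and 0.440% (3.24%). TATAAA ran the other way, in 7.39% of open and 18.1% of closed inner promoters (11.3%).

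The CCAAT motif was found at similar shares, in 33.5% of open and 33.7% of closed inner promoters (35.9% of all starts), as was the NFI core TTGGCA with 13.5% and 16.7% (12.9%). The other motifs were the cyclic AMP element TGACGTCA (2.12% and 0.424%, 2.06% of all starts), AP-1 as TGANTCA (6.46% and 9.45%, 6.57%) and the E-box CAGCTG (20.2% and 18.2%, 16.1%). The MEF2 motif (2.97% and 4.23%, 3.33%), YY1 as AAGATGG (4.76% and 7.24%, 6.72%) and the RFX core GTTGCCA (5.35% and 3.82%, 3.88%) completed the set. The reverse complement of the RFX core and the NFI core can share the bases TGGCA. Windows with more G and C hold GC-rich motifs more often by composition, which was not corrected for.

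Peaks at inner promoters were weaker than those at gene 5' ends and stronger than those away from any TSS. The median strength was 0.938 and 0.866 at inner promoters, 1.89 and 1.42 at 5' ends, and 0.576 and 0.626 away from any TSS. In the 401 genes open inside alone the strongest inner peak had a median of 1.73 in replicate 1 and 1.2 in replicate 2. This was above the 1.47 and 1.07 of inner promoters beside an open 5' end. The 5' ends beside closed inner promoters had 2.97 and 1.81, above the 2.18 and 1.40 of those beside an open inner promoter.

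Offsets were taken for the strongest peak of each open inner promoter (1546 and 1230) and of each open 5' end. Inner midpoints lay at a median of 22.5 bp upstream of the nearest TSS in replicate 1 and 25 bp in replicate 2. At 5' ends the medians were 25 and 30 bp upstream. Within 150 bp of the TSS lay 67.5% and 67.8% of these inner peaks, against 69.6% and 67.6% at 5' ends. Both kinds of call required a midpoint within 500 bp of a TSS, so part of this closeness was set by the rule.

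Sharing between libraries, counted as an overlap of 1 bp or more, was found for 69.7% of inner peaks in replicate 1 and 88.9% in replicate 2, against 59.1% and 84.4% of all peaks. Split into 5 strength classes of all peaks in replicate 1, the shares at inner promoters and at 5' ends were close, with 21.2% and 21.8% in the weakest class and 99.7% and 98.7% in the strongest. A footprint of the same library lay in 84.5% and 79.0% of inner peaks, against 78.7% and 75.8% of all peaks and 88.5% and 85.1% of 5' end peaks. In the strongest class of replicate 1 the mean number of footprints was 4.77 at inner promoters, 5.09 at 5' ends and 3.58 away from any TSS.

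The 1179 inner promoters open in both libraries had strengths that followed each other across promoters (Spearman correlation 0.933, Pearson r of log2 strength 0.936). The log2 difference between the libraries had an SD of 0.38 across these promoters, a spread that a constant difference in scale between the libraries does not change. Open in replicate 1 alone were 367 inner promoters with a median strength of 0.589, and in replicate 2 alone 51 with 0.497. Of these, 17.4% and 29.4% had an FDR stretch in the other library. The strongest called in replicate 1 alone were in Mnt (3.05), Cln8 (2.70) and Nrxn2 (1.81), and in replicate 2 alone in Glrx2 (1.66), Trmt1 (1.07) and Nuak1 (0.969). At Mnt, Cln8, Nrxn2 and Glrx2 a peak of the other library overlapped or touched the peak with its midpoint outside the window, so these are calls at the edge of the rule. At Trmt1 the nearest peak of replicate 1 was 1947 bp away and at Nuak1 3050 bp.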

How the data were processed

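DNase-seq was done on 2 libraries of 1 group. Per the deposited notes, the authors called peaks, footprints and FDR cut rates for each library from its own mm10 alignments, and the peak signal was normalized for read depth by the authors. For the aligner, the caller, versions and thresholds: not given in the sources used here. FDR values (on a p-value scale, as deposited) apply to runs of bases and lay below 0.05 throughout, and footprints were used as positions. Peak signals were whole multiples (within 0.05) of 0.00670 (replicate 1) or 0.00858 (replicate 2), and the median inner peak held 140 and 101 such steps, whose meaning is not stated.

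Peaks of the longer list of each library were matched to GENCODE M21 and the GRCm38 genome with Python 3.11.15, pandas 2.3.3 and numpy 2.4.6. The 159837 peaks lay within its chromosomes. A closed site has no peak midpoint within 500 bp. Peaks were split into 5 strength classes of equal size rather than the planned deciles. No test was run, as there is 1 group, and values are given per library with mean and SD. Classes (1000 of 1000 planted genes) and overlaps (5000 of 5000 equal to bedtools 2.31.1) were tested on simulated data. The members, lists and motifs were chosen with earlier results of these data known. Named genes were the 12 strongest of each single-ended class, the 5 highest and 5 lowest ratios, the 5 genes with the most open inner promoters, the 3 strongest called in 1 library alone, and the listed genes, passing over Gm, Rik and readthrough names. The genes named among those with RefSeq starts at both places were picked after their values were seen. A few of these genes are not reported here. Alternatives are in the closing section.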

Additional observations from a re-analysis of the deposited data

How the results depend on the processing

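The share of inner promoters with a peak (mean of both libraries, 18.0%) became 13.1% with the authors' shorter peak lists (53068 and 36975 peaks), 20.9% with midpoints within 1000 bp, 26.3% without start-not-found models and 27.9% with GENCODE basic transcripts alone. The last 2 also cut the genes open at the 5' end alone from 2226 to 1092 and 896. With the shorter lists, 311 genes were open at both ends instead of 511, and 87.0% of inner peaks had a footprint instead of 81.7%. The shared share fell from 79.3% to 56.6% when 50% reciprocal overlap was required. The median log2 ratio of inner to 5' end strength ranged from -0.48 to -0.30 over leaving out either replicate, and was -0.48 without replicate 2. The number of genes open inside alone stayed within 1.5 times of 401, from 291 (start at least 10 kb inside) to 494 (without replicate 1), and 299 of the 401 were in the class with the shorter lists. Among the 99 values of the main results under these alternatives 10 moved. A count moved when it changed by over 1.5 times, and any other value when it changed by at least the SD of the 2 libraries. The open share and the footprint share with 1 replicate left out could not move by that measure. Only the log2 ratio could change sign, and it did not. Named values that changed by over 1.5 times (means of both libraries) included 4 with midpoints within 250 bp, the 5' end of Ankhd1 to 4.79 and the inner promoters of Abr from 3.41 to 1.03, Nr3c1 from 3.64 to 1.57 and Grb10 from 1.70 to 0.665. Within 1000 bp the 5' end of Shank3 went from 0.970 to 1.58, and the inner promoters of Bdnf from 0.689 to 1.37 and Cask from 0.553 to 1.72. The inner promoter of Fam118a went from 5.71 to 1.56 when starts had to lie 10 kb inside. Its value was also 1.56 with the 5' end taken from the most upstream coding transcript. Alternatives added after seeing the data gave 365 genes without a peak at any start in the first 5 kb, and 1522 genes open at the 5' end alone whose 5' end lay over 1 kb from other genes. The cause of each change was not tested, beyond the smaller number of starts or peaks that an alternative keeps.

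No paired analysis was possible because there is 1 group, so no samples could be paired across groups. Inner and 5' end values are compared within each library in the text. The weakest inner peaks held 15 and 13 signal steps, whose meaning is not stated. An inner promoter without a peak was not detected and may still be open. Only 2 libraries bound every SD, and genes and promoters are not replicates.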
